A study of Homo sapiens with 24 samples.

Results

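Pink1 siRNA was compared with scramble siRNA in ARPE-19 cells, an established human line of retinal pigment epithelium (RPE). Of the 24053 genes in the expression table, 13758 had a mean of at least 1 TPM (a transcript abundance that sums to a fixed total within a sample) over the 6 samples compared, and these were described. Each group had 3 samples that the labels call biological replicates, each run as 2 technical replicates that were averaged here. The groups used were ARPE-19 cells with Pink1 siRNA alone, ARPE-19 cells with scramble siRNA, ARPE-19 cells with the double Nrf2-Pink1 siRNA, and ARPE-19 cells with Nrf2 siRNA alone. The last pair served as a second contrast for the same siRNA target. The labels also use knockout and KD for these groups, where the design text says siRNA, so a transient knockdown in 1 cell line is what they model. A protocol in the labels describes scratch wounding with a pipette tip, and it is not stated if this applied to the cells sequenced.

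PINK1 is a kinase that is normally imported into mitochondria and degraded. On damaged mitochondria it builds up on the outer membrane and phosphorylates ubiquitin, which marks the organelle for autophagy. The retinal pigment epithelium lies behind the photoreceptors, takes up their shed outer segments, carries melanin, recycles retinoids and lays down part of Bruch's membrane, a sheet of collagen and elastic fibres.

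The cells carried part of an RPE profile. OTX2, a transcription factor of RPE, averaged 68.9 ± 9.71 TPM with Pink1 siRNA and 57.5 ± 3.44 TPM with scramble, and the chloride channel gene BEST1 averaged 6.40 ± 0.441 TPM with Pink1 siRNA and 5.90 ± 1.05 TPM with scramble (SD, n = 3 each). RPE65, the isomerase of the visual cycle, was at 0.165 ± 0.134 TPM with Pink1 siRNA and listed at 0 in all 3 scramble samples, so this defining marker was close to absent. Depth is unknown, because TPM keeps no read counts. A single identifier without a name, ENSG00000226958, took 35.5%, 32.3% and 24.9% of all TPM in Pink1 siRNA replicates 1, 2 and 3, against 34.6%, 36.4% and 32.4% in scramble. On the log2 scale, samples correlated across genes with r of 0.958 to 0.962 among Pink1 siRNA samples, 0.951 to 0.956 among scramble samples and 0.938 to 0.954 between the groups.

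PINK1 (ENSG00000158828) was measured first, as a check of the siRNA. It stood at 13.2, 12.4 and 18.3 TPM with Pink1 siRNA, against 53.9, 57.7 and 55.8 TPM with scramble. Every Pink1 siRNA sample lay far below every scramble sample. The mean was 26.2% of the scramble mean, a log2 fold change of -1.88 (SE 0.175, adjusted p = 0.000514 by limma with Benjamini-Hochberg adjustment over all tested genes). NFE2L2, which encodes the antioxidant transcription factor NRF2 and is the target of the other siRNA, stood at 64.1, 70.4 and 71.6 TPM with Pink1 siRNA and 89.2, 74.3 and 78.5 TPM with scramble. The NFE2L2 groups did not overlap, but the difference did not pass the test (log2 fold change -0.23, SE 0.253, adjusted p = 0.755). In bulk samples such as these, fewer cells of a kind and less RNA per cell cannot be told apart. Nothing in the labels says that the replicates came from separate cultures, so the p-values measure the spread between the samples sequenced. That spread was pooled over all 12 biological samples of the 4 groups.

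Across the 13758 tested genes, 63 were called (limma on log2(TPM + 1), adjusted p under 0.05), which is 0.458%. Of these, 48 rose with Pink1 siRNA (0.349% of tested genes) and 15 fell (0.109%), PINK1 among those that fell. The change was at least 2-fold for 45 of them. A scramble mean under 1 TPM was found for 5 of the 63 and a Pink1 siRNA mean under 1 TPM for 1. These genes entered the test through 1 group alone, so their calls are a description. The groups of all 63 were fully apart, against 25.1% of all tested genes. The same samples chose these genes, so this separation is a description and no added evidence. A looser view, an unadjusted p under 0.05, took in 1706 genes (12.4%), of which 1064 were higher and 642 lower. The median log2 fold change of all tested genes was 0.02. The shares called (0.458%) and at an unadjusted p under 0.05 (12.4%) are those to set beside the list counts below. The lists held at most 75 tested genes, so a list without a call is near the share of all tested genes. All lists were drawn up with earlier results of these data known, so a list with calls above these shares is a description.

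**Figure D1:**
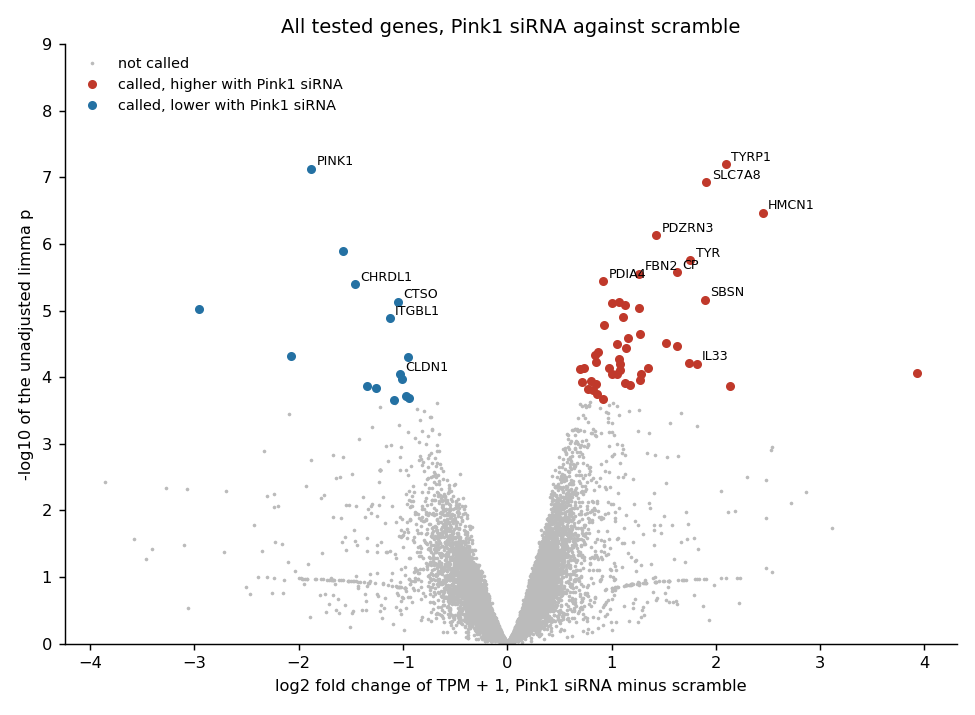
Every tested gene is plotted by its log2 fold change of TPM + 1 (Pink1 siRNA minus scramble, x axis) and by -log10 of its unadjusted limma p (y axis). Red points are the 48 genes called higher, blue points the 15 called lower, and grey points the genes not called. PINK1 and TYRP1 had the smallest p-values, one on each side.

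The number of calls depended on single samples. Since the groups of the 63 genes did not overlap, leaving out 1 of the 6 samples could not turn a sign, and no gene lost more than 23.2% of its log2 fold change in this way. Without Pink1 siRNA replicate 1, 2 or 3 the fit called 45, 27 or 25 genes, and without scramble replicate 1, 2 or 3 it called 18, 20 or 15. In each of these 6 fits 11 genes were called, namely HMCN1, TYRP1, SLC7A8, SBSN, TYR, CP, PDZRN3, FBN2, PDIA4, ENSG00000261604 and PINK1. For TYR and SBSN these calls are a description, since both entered the test through the Pink1 siRNA samples alone. Another 22 were called in 0 of the 6, among them CDH10, CDKL1, NELL2, PLIN2, SLC25A6, SOD3, MAN2B1, CEROX1, MAMDC2, FIBIN, CLDN1, NEK7, PON2 and AOX1. With the replicate number as a block, 40 genes were called, 38 of them among the 63, and the adjusted p of the 25 lost lay between 0.0514 and 0.0714. Rescaling moved the balance of directions as well as the number. Median-of-ratios scaling gave 188 calls, 62.2% of them higher, and quantile normalization gave 224, 65.6% higher. With ENSG00000226958 removed the calls numbered 181, of which 50.3% were higher, against 76.2% of the 63.

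Pigment genes were among the risers. Melanin is made in melanosomes by tyrosinase (TYR), the rate-limiting enzyme, and the tyrosinase-related protein TYRP1. Of 17 tested melanin and melanosome genes 5 rose and none fell (limma, adjusted p under 0.05), against 0.349% and 0.109% of all tested genes. TYR is among the 5 and entered the test through the Pink1 siRNA samples alone. A log2 fold change above 0 was seen for 13 of the 17, against 52.9% of all tested genes. The median of the list was 0.18. By sample, its median log2 difference from the scramble mean was 0.11, 0.14 and 0.31 with Pink1 siRNA. The Nrf2 siRNA samples had like values of 0.16, 0.19 and 0.29, so this shift was not particular to Pink1 siRNA. In double siRNA against Nrf2 siRNA the median of the melanin and melanosome genes was 0.09. The list was drawn up with earlier results of these data known, so its direction is not independent evidence.

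TYRP1 stood at 40.0, 43.6 and 52.99 TPM with Pink1 siRNA, against 9.77, 8.29 and 11.7 TPM with scramble. TYR stood at 3.33, 3.81 and 4.02 TPM with Pink1 siRNA, against 0.195, 0.545 and 0.465 TPM with scramble. Both enzymes were several-fold higher in every Pink1 siRNA sample, and TYR entered the test through the Pink1 siRNA samples alone, its scramble mean being under 1 TPM. The log2 fold change was 2.09 for TYRP1 (SE 0.192, adjusted p = 0.000514) and 1.76 for TYR (SE 0.216, adjusted p = 0.00348). The TYR p and its leave-one-out calls are therefore a description.

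SLC45A2, a melanosomal membrane transporter needed for normal pigmentation, stood at 4.76, 9.20 and 9.36 TPM with Pink1 siRNA, against 1.66, 1.41 and 2.26 TPM with scramble (log2 fold change 1.62, SE 0.264, adjusted p = 0.0181). MYO7A, the unconventional myosin known in mouse RPE to place melanosomes and move phagosomes, stood at 17.5, 19.7 and 26.0 TPM with Pink1 siRNA, against 7.34, 8.34 and 8.69 TPM with scramble (log2 fold change 1.26, SE 0.180, adjusted p = 0.00716). TSPAN10, a tetraspanin expressed in pigment cells, stood at 94.0, 100.7 and 142.7 TPM with Pink1 siRNA, against 47.7, 40.3 and 48.3 TPM with scramble (log2 fold change 1.27, SE 0.198, adjusted p = 0.0141). None of these groups overlapped. The SLC45A2 and TSPAN10 calls each held in 1 of the 6 fits that left a sample out, and the MYO7A call in 3 of 6.

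MITF, the master transcription factor of pigment cells, stood at 77.9, 79.7 and 106.8 TPM with Pink1 siRNA and 64.3, 57.8 and 60.5 TPM with scramble. The Pink1 siRNA samples were all higher, but the gene did not pass the test (log2 fold change 0.51, SE 0.214, adjusted p = 0.347). PMEL, which forms the fibrils inside melanosomes, averaged 4.83 ± 0.497 TPM with Pink1 siRNA and 5.08 ± 1.79 TPM with scramble, and its groups overlapped. GPR143, RAB27A, RAB32 and RAB38, which act in melanosome formation and transport, had log2 fold changes of 0.15, 0.14, -0.06 and -0.32, and none was called. Melanocyte markers stayed low in both groups, with a summed level of 4.45 to 6.75 TPM over the 3 present in the table (PMEL, MLANA and MC1R) with Pink1 siRNA and 4.03 to 8.52 TPM with scramble.

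The promoters of the risen pigment genes are shown because MITF is known to bind the E-box CATGTG, most strongly where a T stands before it (TCATGTG). RefSeq (GRCh38.p14) windows from 250 bases before to 50 after the gene start were available for TYR, TYRP1 and TSPAN10, and not used here for SLC45A2 and MYO7A. The windows lie on the plus strand at chr11:89177625-89177924, chr9:12693135-12693434 and chr17:81642055-81642354, and capitals mark CATGTG or its reverse complement CACATG.
TYR promoter: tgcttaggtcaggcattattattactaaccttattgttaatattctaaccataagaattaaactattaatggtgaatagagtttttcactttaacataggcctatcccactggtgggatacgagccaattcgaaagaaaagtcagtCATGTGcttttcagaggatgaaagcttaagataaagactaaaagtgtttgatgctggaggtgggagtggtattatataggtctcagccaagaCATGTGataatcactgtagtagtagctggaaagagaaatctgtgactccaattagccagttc
TYRP1 promoter: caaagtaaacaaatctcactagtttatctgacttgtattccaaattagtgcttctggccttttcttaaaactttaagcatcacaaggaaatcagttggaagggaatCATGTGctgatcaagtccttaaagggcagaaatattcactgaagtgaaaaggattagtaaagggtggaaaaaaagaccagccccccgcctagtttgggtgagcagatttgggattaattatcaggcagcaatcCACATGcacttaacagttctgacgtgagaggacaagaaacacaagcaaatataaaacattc
TSPAN10 promoter: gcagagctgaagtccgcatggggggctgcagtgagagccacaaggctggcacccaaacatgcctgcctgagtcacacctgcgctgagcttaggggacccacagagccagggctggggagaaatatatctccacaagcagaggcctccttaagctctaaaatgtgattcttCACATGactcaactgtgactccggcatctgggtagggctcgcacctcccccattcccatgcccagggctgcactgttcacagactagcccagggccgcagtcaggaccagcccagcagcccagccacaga
The first letters of the matches lay at -104 and -12 relative to the gene start in TYR, at -144 and -11 in TYRP1 and at -80 in TSPAN10. Each of the 3 windows held 1 copy of the longer TCATGTG or its reverse complement CACATGA, which contains the shorter motif. Searched on both strands, CATGTG was present in 11.2% of the 27305 RefSeq promoter windows and TCATGTG in 2.99%. Among tested genes with a window the shares were 6.28% and 1.59% of 9941, and among tested melanin and melanosome genes both motifs were in 4 of 11 windows. A match describes letters in the window and not a bound site.

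**Figure D2:**
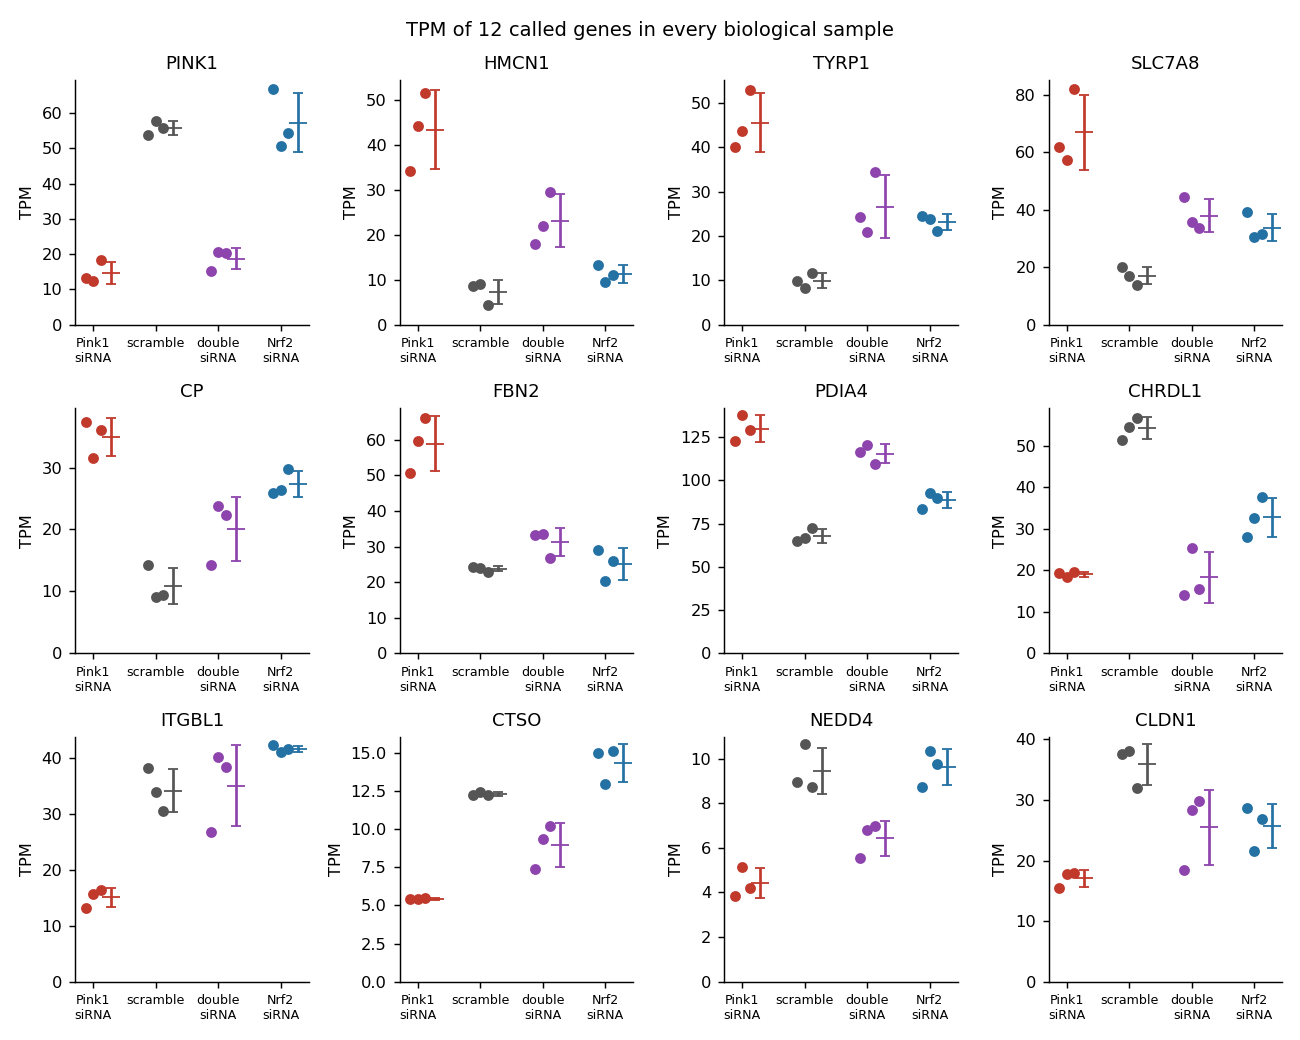
Each panel shows the TPM of a called gene in every biological sample (points) with the mean ± SD beside them (bar), for Pink1 siRNA, scramble, double siRNA and Nrf2 siRNA, n = 3 each. TYRP1, SLC7A8 and CP lay between 31.5 and 81.9 TPM in the Pink1 siRNA samples and between 8.29 and 20.04 TPM in the scramble samples.

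Matrix genes were also among the risers. Elastic fibres are built on microfibrils of fibrillin with the help of fibulins and latent TGF-beta binding proteins, and basement membranes on laminins, nidogens and perlecan. Of 25 tested genes of these structures 3 rose and none fell, against 0.349% and 0.109% of all tested genes. This list too was drawn up with earlier results of these data known, so its counts and direction are not independent evidence. The log2 fold change was above 0 for 23 of the 25, with a list median of 0.43, and the groups were apart and higher for 10, against 13.8% of all tested genes. Scaling left this median between 0.36 and 0.43, and it was 0.23 without Pink1 siRNA replicate 3.

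HMCN1, hemicentin 1, an extracellular protein of basement membrane junctions, stood at 34.2, 44.1 and 51.6 TPM with Pink1 siRNA, against 8.59, 9.12 and 4.29 TPM with scramble (log2 fold change 2.45, SE 0.260, adjusted p = 0.00117). FBN2, fibrillin 2, stood at 50.7, 59.7 and 66.1 TPM with Pink1 siRNA, against 24.3, 23.9 and 23.0 TPM with scramble (log2 fold change 1.27, SE 0.162, adjusted p = 0.00431). FBLN5, fibulin 5, which guides elastin assembly, stood at 8.995, 6.37 and 9.38 TPM with Pink1 siRNA, against 3.43, 3.08 and 2.97 TPM with scramble (log2 fold change 1.14, SE 0.186, adjusted p = 0.0184). All 3 were higher in each Pink1 siRNA sample than in any scramble sample, though the FBLN5 call held in only 1 of 6 leave-one-out fits. LTBP1 and LTBP4, which hold latent TGF-beta in the matrix, had log2 fold changes of 1.27 and 0.97 and just missed the threshold (adjusted p = 0.0531 and 0.0610). The laminin genes LAMB1 and LAMB2 and the perlecan gene HSPG2 had log2 fold changes of 0.55, 0.44 and 0.63 without being called.

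Among 11 tested collagen genes 1 rose, against 0.349% of all tested genes. COL6A1, a chain of the microfibrillar collagen VI, stood at 17.3, 18.1 and 26.2 TPM with Pink1 siRNA, against 8.28, 8.83 and 9.30 TPM with scramble (log2 fold change 1.11, SE 0.164, adjusted p = 0.00893, called in 3 of 6 leave-one-out fits). COL12A1, a fibril-associated collagen, averaged 183.6 ± 11.7 TPM with Pink1 siRNA and 120.4 ± 8.07 TPM with scramble, and was not called (adjusted p = 0.0939). The basement membrane chains COL4A1 and COL4A2 had log2 fold changes of -0.05 and 0.31. The list median was 0.31, and 0.11 without Pink1 siRNA replicate 3.

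P3H1 and CRTAP encode partners in the complex that hydroxylates collagen prolines in the endoplasmic reticulum. P3H1 stood at 44.6, 52.9 and 56.2 TPM with Pink1 siRNA, against 27.6, 28.6 and 27.3 TPM with scramble (log2 fold change 0.85, SE 0.146, adjusted p = 0.0245, and 0.0514 with the replicate block). CRTAP lies outside the naming rule and was picked after its values were seen, as were the next 3 genes. CRTAP averaged 425.6 ± 39.4 TPM with Pink1 siRNA and 258.7 ± 16.0 TPM with scramble (adjusted p = 0.0322). PDIA4 and PDIA5, disulfide isomerases of the endoplasmic reticulum, averaged 129.9 ± 7.61 and 96.2 ± 10.95 TPM with Pink1 siRNA and 68.1 ± 4.05 and 52.98 ± 1.03 TPM with scramble (adjusted p = 0.00503 and 0.0217). SRPRA, the docking receptor for ribosomes that make secreted proteins, averaged 161.0 ± 23.4 TPM with Pink1 siRNA and 79.5 ± 2.05 TPM with scramble (adjusted p = 0.00697). The PDIA4 call held in all 6 leave-one-out fits, the SRPRA call in 5 and the CRTAP, PDIA5 and P3H1 calls in 1 each. The lysyl hydroxylase PLOD1 had a log2 fold change of 0.67 and was not called (adjusted p = 0.0760). Of the 19 tested matricellular proteins, proteases and crosslinkers P3H1 was the 1 called, and the list median was 0.00.

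Each of the next lists held a single riser, against 0.349% of all tested genes. SLC7A8, a transporter of neutral amino acids, stood at 61.8, 57.2 and 81.9 TPM with Pink1 siRNA, against 20.04, 17.1 and 14 TPM with scramble (log2 fold change 1.91, SE 0.185, adjusted p = 0.000543). It was the 1 called among 16 tested amino acid transporters, whose median was 0.02. CP, ceruloplasmin, the copper ferroxidase that lets iron leave cells, stood at 37.4, 31.5 and 36.1 TPM with Pink1 siRNA, against 14.3, 9.02 and 9.36 TPM with scramble (log2 fold change 1.62, SE 0.207, adjusted p = 0.00431). Both genes were higher in every Pink1 siRNA sample and kept their call without any 1 sample. CP was the 1 called among 22 tested genes of iron, copper and zinc handling. The ferritin light chain gene FTL stood at 1837, 1953 and 2301 TPM with Pink1 siRNA and 1066, 1172 and 1300 TPM with scramble, and was not called (log2 fold change 0.78, adjusted p = 0.149).

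IL33, a nuclear alarmin cytokine, stood at 20.4, 22.1 and 9.56 TPM with Pink1 siRNA, against 3.54, 5.14 and 3.31 TPM with scramble (log2 fold change 1.82, SE 0.314, adjusted p = 0.0245). Pink1 siRNA replicate 3 was the lowest of its group and still above every scramble sample. The IL33 call held in 1 of 6 leave-one-out fits, the one without that sample. ABCB5, an ABC transporter, stood at 39.6, 43.4 and 32.0 TPM with Pink1 siRNA, against 18.9, 16.0 and 14.7 TPM with scramble (log2 fold change 1.16, SE 0.184, adjusted p = 0.0157). It was the 1 called among 25 tested ABC transporters and also held its call in 1 of 6 fits. PDZRN3, a ubiquitin ligase, stood at 25.0, 24.2 and 27.3 TPM with Pink1 siRNA, against 8.36, 9.63 and 8.60 TPM with scramble (log2 fold change 1.43, SE 0.162, adjusted p = 0.00205). Its samples were tight in both groups and its call held in all 6 fits. Of 21 tested ubiquitin ligases PDZRN3 rose and 1 fell, NEDD4.

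Other risers named by size were a mixed set. SBSN, suprabasin, a secreted epithelial protein, averaged 4.85 ± 0.814 TPM with Pink1 siRNA and 0.575 ± 0.231 TPM with scramble (log2 fold change 1.89, adjusted p = 0.00697). With a scramble mean under 1 TPM, SBSN entered the test through the Pink1 siRNA samples alone, so its p and its leave-one-out calls are a description. CDH10, a type II cadherin, averaged 7.18 ± 1.41 TPM with Pink1 siRNA and 1.84 ± 0.422 TPM with scramble (adjusted p = 0.0174). CDKL1, a cyclin-dependent kinase-like kinase, averaged 9.99 ± 0.385 TPM with Pink1 siRNA and 3.39 ± 0.911 TPM with scramble. NELL2, a secreted glycoprotein, averaged 9.58 ± 2.68 TPM with Pink1 siRNA and 3.61 ± 0.556 TPM with scramble. CDKL1 and NELL2 were called (adjusted p = 0.0259 and 0.0342) and lost the call with the replicate block (0.0561 and 0.0607). The non-coding RNA LINC00520 averaged 4.05 ± 1.90 TPM with Pink1 siRNA and 0.438 ± 0.0708 TPM with scramble (adjusted p = 0.0245), and likewise entered the test through the Pink1 siRNA samples alone.

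Called genes outside the naming rule, given here after their values were seen, are described next. PLIN2, which coats lipid droplets, averaged 140.4 ± 8.81 TPM with Pink1 siRNA and 66.6 ± 4.77 TPM with scramble (log2 fold change 1.07, adjusted p = 0.0229). SLC25A6, an exchanger of ADP and ATP in the inner mitochondrial membrane, averaged 319.6 ± 54.3 TPM with Pink1 siRNA and 179.9 ± 22.6 TPM with scramble (log2 fold change 0.82, adjusted p = 0.0369). SOD3, the extracellular superoxide dismutase, averaged 27.7 ± 7.25 TPM with Pink1 siRNA and 13.97 ± 2.15 TPM with scramble (log2 fold change 0.92, adjusted p = 0.0472, and 0.0714 with the replicate block). IGFBP5, which binds insulin-like growth factors, averaged 24.6 ± 2.33 TPM with Pink1 siRNA and 11.2 ± 0.929 TPM with scramble (log2 fold change 1.07, adjusted p = 0.00697). All 4 sat higher in every Pink1 siRNA sample. YBX3, a cold-shock domain protein that binds RNA, averaged 174.1 ± 24.4 TPM with Pink1 siRNA and 78.8 ± 5.31 TPM with scramble (adjusted p = 0.00697).

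The genes that fell, PINK1 apart, are described next. CHRDL1, chordin-like 1, which binds and blocks bone morphogenetic proteins, stood at 19.4, 18.4 and 19.5 TPM with Pink1 siRNA, against 51.4, 54.5 and 56.7 TPM with scramble (log2 fold change -1.46, SE 0.193, adjusted p = 0.00504). ITGBL1, a secreted protein related to integrin beta chains, stood at 13.2, 15.7 and 16.5 TPM with Pink1 siRNA, against 38.2, 34.0 and 30.5 TPM with scramble (log2 fold change -1.13, SE 0.167, adjusted p = 0.00902). MAMDC2, a secreted proteoglycan, stood at 32.0, 37.3 and 45.8 TPM with Pink1 siRNA, against 131.4, 79.6 and 88.9 TPM with scramble (log2 fold change -1.34, SE 0.252, adjusted p = 0.0344, and 0.0613 with the replicate block). The groups stayed apart for all 3. ITGBL1 was the 1 called among 22 tested integrin and adhesion genes, whose median was 0.13. CHRDL1 and ITGBL1 kept their call in 5 and 4 of 6 leave-one-out fits, and MAMDC2 in 0. FIBIN, another secreted protein, averaged 13.5 ± 0.662 TPM with Pink1 siRNA and 26.7 ± 1.23 TPM with scramble (adjusted p = 0.0455, and 0.0584 with the block).

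CLDN1, claudin 1, a sealing protein of tight junctions, stood at 15.4, 17.8 and 18.0 TPM with Pink1 siRNA, against 37.6, 38.1 and 32.0 TPM with scramble (log2 fold change -1.03, SE 0.185, adjusted p = 0.0272, and 0.0584 with the block). It was the 1 called among 16 tested epithelial junction and keratin genes, whose median was -0.16. GJA1, the gap junction protein connexin 43, stood at 81.4, 82.0 and 70.0 TPM with Pink1 siRNA and 167.3, 131.2 and 141.0 TPM with scramble without being called (log2 fold change -0.90, adjusted p = 0.176). The simple-epithelium keratins KRT8 and KRT18 had log2 fold changes of -0.11 and -0.23, with overlapping groups.

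NEDD4, a ubiquitin ligase that sends membrane proteins to degradation, stood at 3.86, 5.16 and 4.22 TPM with Pink1 siRNA, against 8.94, 10.6 and 8.74 TPM with scramble (log2 fold change -0.95, SE 0.161, adjusted p = 0.0223). NEK7, a kinase of mitosis and of the NLRP3 inflammasome, stood at 13.7, 23.7 and 21.2 TPM with Pink1 siRNA, against 37.0, 44.1 and 34.1 TPM with scramble (log2 fold change -0.97, SE 0.189, adjusted p = 0.0435). Both were lower in every Pink1 siRNA sample. NEDD4 kept its call in 1 of 6 leave-one-out fits and NEK7 in 0. Counting CHRDL1 and NEDD4, 2 of 36 tested TGF-beta and BMP pathway genes fell and none rose, with a list median of 0.02. Over all tested genes 0.109% fell and 0.349% rose. TGFBR2, the type II TGF-beta receptor, stood at 20.6, 19.9 and 19.8 TPM with Pink1 siRNA and 27.0, 27.5 and 27.0 TPM with scramble, and was not called (log2 fold change -0.42, adjusted p = 0.227).

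In the pathway of PINK1 itself the other genes showed no call. Of 26 tested genes of the PINK1 pathway and mitophagy PINK1 was the 1 called, and the list median was -0.03. The mitophagy receptor BNIP3 stood at 85.7, 95.7 and 93.8 TPM with Pink1 siRNA and 90.6, 84.8 and 101.9 TPM with scramble, its groups overlapping. The receptor FKBP8 had a log2 fold change of 0.52 (adjusted p = 0.220) and the deubiquitinase USP15 one of -0.68 (adjusted p = 0.238).

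Of 33 tested autophagy and lysosome genes 1 fell and none rose, against 0.109% and 0.349% of all tested genes. CTSO, a cysteine protease of the lysosome, stood at 5.39, 5.41 and 5.51 TPM with Pink1 siRNA, against 12.2, 12.4 and 12.2 TPM with scramble (log2 fold change -1.05, SE 0.146, adjusted p = 0.00697). Its samples were tight in both groups, and it kept its call in 5 of 6 leave-one-out fits. CTSD, the main aspartic protease of the lysosome, stood at 2501, 2833 and 3423 TPM with Pink1 siRNA and 1591, 1722 and 1820 TPM with scramble, and NPC1, the lysosomal cholesterol exporter, had a log2 fold change of 0.80. Neither passed the test (adjusted p = 0.130 and 0.133). Outside the list, GAA, MAN2B1 and DPP7 rose, and were picked after their values were seen. GAA, the acid alpha-glucosidase, averaged 40.3 ± 4.18 TPM with Pink1 siRNA and 18.8 ± 0.510 TPM with scramble (adjusted p = 0.0175). MAN2B1, the acid alpha-mannosidase, averaged 46.7 ± 8.49 TPM with Pink1 siRNA and 25.0 ± 0.416 TPM with scramble, with an adjusted p of 0.0422 (0.0714 with the replicate block). DPP7, a dipeptidyl peptidase, averaged 131.5 ± 16.5 TPM with Pink1 siRNA and 68.7 ± 7.53 TPM with scramble (adjusted p = 0.0106).

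Nuclear genes of the respiratory chain held no call, and most lay a little below 0. None of 75 tested OXPHOS subunits passed the limma test, while 6 had an unadjusted p under 0.05, all of them lower. The log2 fold change was below 0 for 62 of the 75, against 47.1% of all tested genes, and the groups were apart and lower for 23, against 11.3%. The list median was -0.14, between -0.21 and -0.14 under the scalings and between -0.20 and -0.07 in leave-one-out fits. Relative to the scramble mean, the samples stood at -0.243, -0.194 and -0.065 with Pink1 siRNA and -0.062, -0.053 and 0.129 with scramble. Pink1 siRNA replicate 3 was thus level with scramble replicates 1 and 2. In double siRNA against Nrf2 siRNA the list median was 0.015. NDUFC1, a subunit of complex I, stood at 88.0, 76.9 and 62.9 TPM with Pink1 siRNA and 119.1, 126.3 and 138.8 TPM with scramble (log2 fold change -0.76, adjusted p = 0.191). The most abundant subunits barely differed, ATP5F1B with a log2 fold change of 0.13 and COX7C with -0.03.

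Genes that control mitochondrial number and shape gave 1 call in 28 tested. PPARGC1A, which encodes the coactivator PGC-1alpha that drives mitochondrial biogenesis, stood at 4.22, 4.40 and 7.83 TPM with Pink1 siRNA, against 1.19, 2.09 and 1.60 TPM with scramble (log2 fold change 1.28, SE 0.234, adjusted p = 0.0316, and 0.0607 with the replicate block). TFAM, which packages and transcribes mitochondrial DNA, stood at 10.5, 12.7 and 12.04 TPM with Pink1 siRNA and 20.1, 21.1 and 23.8 TPM with scramble. TFAM was thus lower in every Pink1 siRNA sample but not called (log2 fold change -0.83, SE 0.211, adjusted p = 0.116). CEROX1, a non-coding RNA known in mouse cells to raise complex I subunit transcripts, stood at 5.93, 4.99 and 5.83 TPM with Pink1 siRNA, against 1.89, 1.52 and 1.70 TPM with scramble (log2 fold change 1.28, SE 0.231, adjusted p = 0.0272, and 0.0561 with the block). Among 17 mitochondrial chaperones and proteases none was called (limma; 1 had an unadjusted p under 0.05), and HSPD1 and HSPA9 had log2 fold changes of -0.04 and 0.07.

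PON2, paraoxonase 2, an antioxidant lactonase of mitochondria and endoplasmic reticulum, was the 1 gene called among 17 mitochondrial antioxidant and redox genes. It stood at 25.1, 30.8 and 25.2 TPM with Pink1 siRNA, against 56.4, 57.5 and 52.3 TPM with scramble (log2 fold change -1.01, SE 0.185, adjusted p = 0.0309, and 0.0514 with the block). FDXR, ferredoxin reductase, was higher in each Pink1 siRNA sample and missed the threshold narrowly (log2 fold change 0.78, adjusted p = 0.0503). Of 27 tested NRF2 targets AOX1 was the 1 called. AOX1, aldehyde oxidase, stood at 24.9, 28.1 and 21.5 TPM with Pink1 siRNA, against 50.7, 54.5 and 55.3 TPM with scramble (log2 fold change -1.08, SE 0.215, adjusted p = 0.0487, and 0.0561 with the block). NQO1, the quinone reductase that often serves as a readout of NRF2, stood at 150.3, 190.6 and 179.5 TPM with Pink1 siRNA and 153.0, 165.9 and 162.5 TPM with scramble, with overlapping groups. The list median was 0.11.

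Stress, survival and growth genes held no call. The lists held 22 tested genes of the ATF4 stress response, 21 p53 targets and 19 apoptosis genes. Also tested were 25 genes of the PI3K, AKT and mTOR pathway and 34 cell cycle genes. Limma called none, against 0.458% of all tested genes, a share at which lists of this size would rarely hold a call. In the order given, 4, 6, 1, 4 and 5 had an unadjusted p under 0.05, against 12.4% of all tested genes. A log2 fold change above 0 was seen for 17, 10, 9, 18 and 24, against 52.9%. The list medians were 0.19, -0.04, -0.03, 0.13 and 0.13. AKT1, the central kinase of its pathway, stood at 72.4, 84.3 and 87.9 TPM with Pink1 siRNA and 55.8, 53.4 and 58.0 TPM with scramble (log2 fold change 0.54, adjusted p = 0.1002). SHMT2, the mitochondrial serine hydroxymethyltransferase that ATF4 controls, had a log2 fold change of 0.59 (adjusted p = 0.1002). ATF4 itself had a log2 fold change of 0.05, CDKN1A, the cell cycle inhibitor p21, one of 0.28, and CCND1, cyclin D1, one of 0.41, and none was called.

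Mesenchymal and epithelial-mesenchymal transition (EMT) genes also held no call by limma among 18 tested, with 4 at an unadjusted p under 0.05 and a list median of 0.08 (-0.04 under quantile normalization). VIM, vimentin, stood at 4447, 4702 and 5472 TPM with Pink1 siRNA and 3954, 4247 and 4689 TPM with scramble, and the groups overlapped. ZEB1, a transcriptional repressor of epithelial genes, stood at 10.4, 11.1 and 10.6 TPM with Pink1 siRNA and 8.23, 9.27 and 7.20 TPM with scramble. The ZEB1 samples did not overlap, and the difference was small and not called (log2 fold change 0.35, SE 0.170, adjusted p = 0.428). CD44, a hyaluronan receptor, had a log2 fold change of 0.54 (adjusted p = 0.164).

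**Figure D3:**
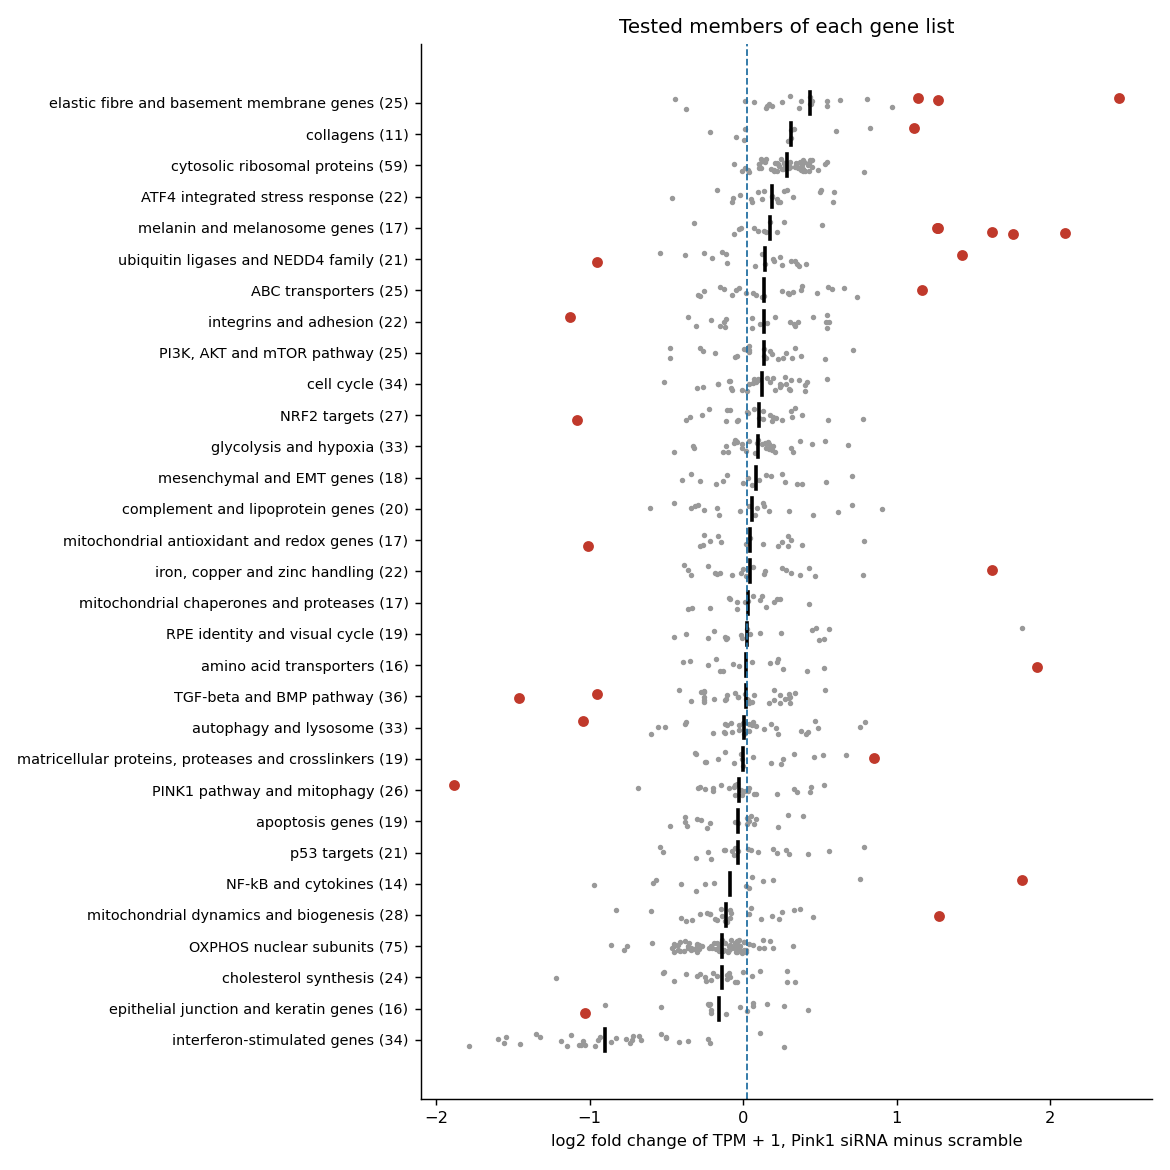
Each row is a gene list with its number of tested members in brackets, and each point is the log2 fold change of TPM + 1 of a member (Pink1 siRNA minus scramble). Red points are called genes, black bars list medians, and the dashed blue line the median of all tested genes, 0.02. Interferon-stimulated genes had the lowest median (-0.90) and elastic fibre and basement membrane genes the highest (0.43).

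Interferon-stimulated genes had the lowest median of the lists shown, -0.90, and 32 of 34 tested members had a log2 fold change below 0. None was called by limma and 8 had an unadjusted p under 0.05. The samples did not split by group. The median of the list relative to the scramble mean was -1.04, -0.42 and -1.14 in Pink1 siRNA replicates 1, 2 and 3, against -0.95, 0.61 and 0.46 in scramble replicates 1, 2 and 3. Scramble replicate 1 was thus level with the Pink1 siRNA samples, and the list median was -1.34 without it and -0.56 without scramble replicate 2. IFI6, an interferon-induced antiviral protein, stood at 239.4, 286.9 and 131.9 TPM with Pink1 siRNA and 249.4, 1270 and 1175 TPM with scramble, showing the same overlap. In double siRNA against Nrf2 siRNA the list median was -1.64. There the samples did split, at -0.79, -0.05 and 0.56 with double siRNA and 0.75, 2.32 and 1.53 with Nrf2 siRNA, relative to the scramble mean. IFI6 had a log2 fold change of -2.08 in that contrast and was not called (limma, adjusted p = 0.376).

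**Figure D4:**
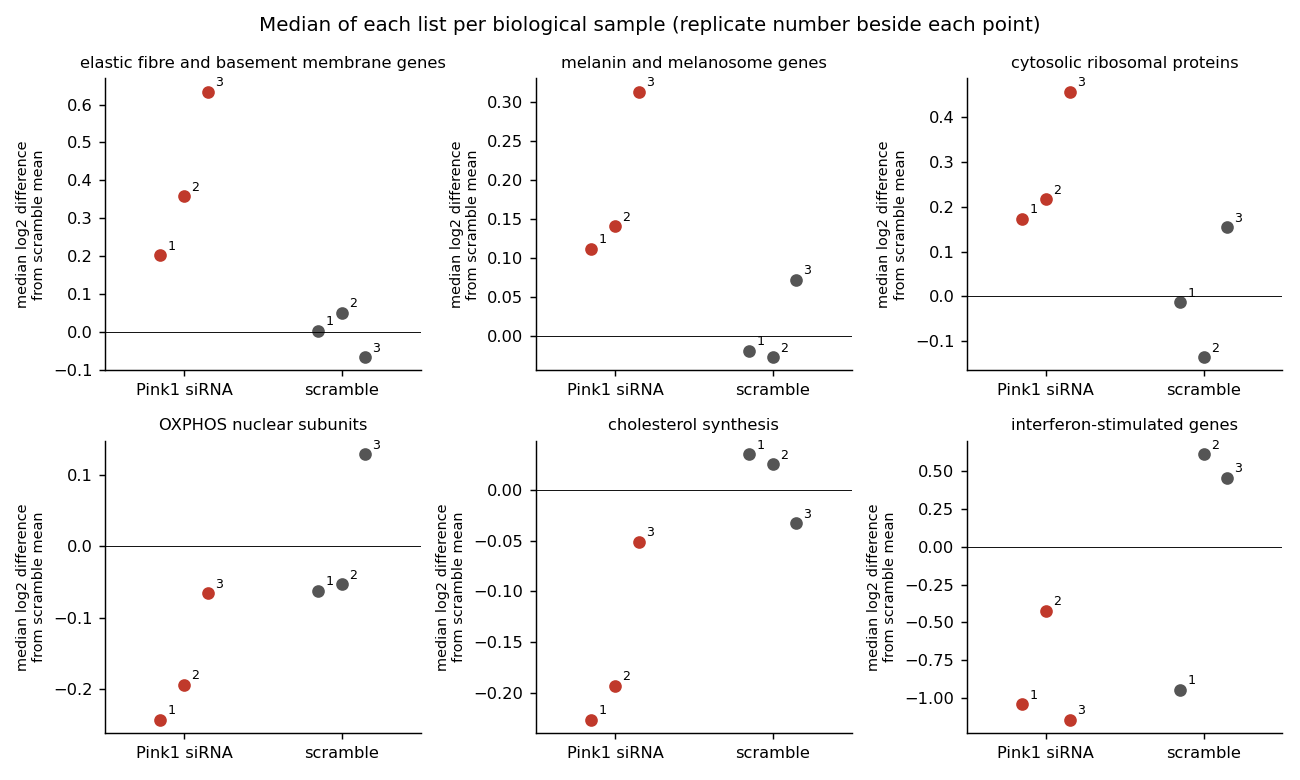
The median log2 difference from the scramble mean over each list is shown for each biological sample of Pink1 siRNA (left) and scramble (right), with the replicate number beside the point. Elastic fibre genes were higher in every Pink1 siRNA sample (0.20, 0.36 and 0.63), and for interferon-stimulated genes scramble replicate 1 (-0.95) lay among the Pink1 siRNA samples. The Nrf2 siRNA samples, not drawn here, stood at 0.50, 0.25 and 0.30 for the elastic fibre genes.

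Inflammatory genes gave IL33 as the 1 call among 14 tested NF-kB and cytokine genes, with a median of -0.08. The chemokine CCL2 stood at 42.4, 38.0 and 40.5 TPM with Pink1 siRNA and 95.8, 60.3 and 88.3 TPM with scramble, and the groups were apart. CSF1, a growth factor for macrophages, stood at 20.1, 20.5 and 25.0 TPM with Pink1 siRNA and 11.2, 14.9 and 11.6 TPM with scramble. Neither was called (log2 fold change -0.97 and 0.76, adjusted p = 0.195 and 0.0878). Among 20 complement and lipoprotein genes limma called none and 5 had an unadjusted p under 0.05. The protease C1R had a log2 fold change of 0.62 and the complement inhibitor CD46 one of -0.45.

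Ribosomal protein genes differed by small amounts. Of 59 tested, 57 had a log2 fold change above 0, against 52.9% of all tested genes, and 29 had groups apart and higher, against 13.8%. None was called by limma (9 at an unadjusted p under 0.05). Their median was 0.28, and 0.11 to 0.25 under the other scalings. RPLP0, of the ribosomal stalk, stood at 2611, 2798 and 3403 TPM with Pink1 siRNA and 1729, 1589 and 1756 TPM with scramble (log2 fold change 0.79, adjusted p = 0.134). Cholesterol synthesis genes lay mostly on the other side, with 19 of 24 genes below 0, against 47.1% of all tested genes, and a median of -0.14. In double siRNA against Nrf2 siRNA the median of the cholesterol synthesis genes was 0.09, of the opposite sign. HMGCS1, an early enzyme of that route, stood at 6.72, 5.91 and 4.27 TPM with Pink1 siRNA and 14.4, 14.6 and 13.7 TPM with scramble, and fell just short of a call (log2 fold change -1.22, SE 0.248, adjusted p = 0.0503). No glycolysis and hypoxia gene among 33 was called by limma (3 at an unadjusted p under 0.05), and GAPDH had a log2 fold change of 0.19.

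RPE identity genes gave no call by limma among 19 tested, with 4 at an unadjusted p under 0.05 and a median of 0.02. ITGB5, the integrin beta chain used in outer segment uptake, stood at 261.3, 288.2 and 344.9 TPM with Pink1 siRNA and 210.6, 194.1 and 197.8 TPM with scramble (log2 fold change 0.56, adjusted p = 0.155). BSG, basigin, had a log2 fold change of 0.52 (adjusted p = 0.149). SERPINF1, which encodes the secreted factor PEDF, stood at 3.86, 1.94 and 2.05 TPM with Pink1 siRNA and was listed at 0 in all 3 scramble samples. Markers of other cells were low. The sum over 3 blood and immune markers was 25.4 to 31.7 TPM with Pink1 siRNA and 19.5 to 38.4 TPM with scramble, nearly all of it CD68, while the leukocyte gene PTPRC averaged 0.020 TPM with Pink1 siRNA and was listed at 0 in all scramble samples. The sum over 3 endothelial markers was 1.48 to 2.65 TPM with Pink1 siRNA and 1.16 to 1.51 TPM with scramble. That over 6 neural and photoreceptor markers was 21.7 to 22.03 TPM with Pink1 siRNA and 14.4 to 17.7 TPM with scramble, most of it the cytoskeletal gene MAP2, and its part in the results was not tested.

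Double siRNA was compared with Nrf2 siRNA as a second contrast for loss of PINK1, in 6 samples that the first contrast does not use. PINK1 stood at 15.3, 20.5 and 20.3 TPM with double siRNA, against 66.6, 50.7 and 54.3 TPM with Nrf2 siRNA (log2 fold change -1.57, SE 0.175, adjusted p = 0.00855). The adjusted p of this difference was 0.0551 without scramble replicate 3, 0.211 with technical replicate 2 alone and 0.711 with the compared groups fitted alone. The same fit called 2 genes (0.0145% of those tested), PINK1 and SCHIP1, and 938 had an unadjusted p under 0.05. SCHIP1, an adaptor protein of the membrane skeleton, stood at 2.86, 4.01 and 5.22 TPM with double siRNA, against 16.5, 15.3 and 32.4 TPM with Nrf2 siRNA (log2 fold change -2.10, adjusted p = 0.0158). It averaged 3.41 ± 0.418 TPM with Pink1 siRNA and 3.22 ± 0.537 TPM with scramble, with overlapping groups, so of the 2 genes only PINK1 was among the 63.

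Of the 63 genes, 53 had the same sign in double siRNA against Nrf2 siRNA, against 57.8% of all tested genes, made up of 39 of the 48 risers and 14 of the 15 that fell. An unadjusted p under 0.05 with the same sign was seen for 18 (5.1% of all tested genes) and with the opposite sign for 1, CP. The 53, the 14 and the 18 include PINK1, the siRNA target in both contrasts, whose fall is a check of the siRNA. TYR and TMEM167AP2, which entered the test through 1 group alone, are also among the 18. All 63 log2 fold changes were smaller in size than in the contrast that had chosen the genes, so the sizes are not like for like. The risers had a median of 0.17, against 1.12 where they were chosen, and the genes that fell -0.52, against -1.13. HMCN1 stood at 17.9, 21.9 and 29.5 TPM with double siRNA and 13.4, 9.51 and 11.01 TPM with Nrf2 siRNA (log2 fold change 0.95). PDZRN3 had a log2 fold change of 0.64, IL33 one of 1.08, CHRDL1 -0.84, CTSO -0.63 and PON2 -0.72, each without overlap.

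Several risers were at a like level in both Nrf2 siRNA groups. TYRP1 stood at 24.4, 20.8 and 34.5 TPM with double siRNA and 24.6, 23.9 and 21.1 TPM with Nrf2 siRNA. SLC7A8 stood at 44.4, 35.8 and 33.5 TPM with double siRNA and 39.3, 30.6 and 31.6 TPM with Nrf2 siRNA. CP stood at 14.2, 23.8 and 22.3 TPM with double siRNA and 25.9, 26.4 and 29.8 TPM with Nrf2 siRNA. For TYRP1 and SLC7A8 the groups overlapped, and for CP the double siRNA samples were lower. In all 3 genes every Nrf2 siRNA sample lay above every scramble sample, so these rises were not particular to Pink1 siRNA. TYR, ABCB5 and IGFBP5 averaged 2.65, 37.8 and 51.3 TPM with Nrf2 siRNA, against 0.402, 16.5 and 11.2 TPM with scramble. Most of the 48 risers likewise had every Nrf2 siRNA sample above every scramble sample, among them FBLN5, TSPAN10, PDIA4 and YBX3. COL6A1, SRPRA and CRTAP, also among them, averaged 16.0, 136.1 and 386.2 TPM with Nrf2 siRNA, against 8.80, 79.5 and 258.7 TPM with scramble. The remaining risers, such as IL33, CEROX1 and PRSS12, did not show this. FBN2 and SLC25A6 averaged 25.1 and 164.0 TPM with Nrf2 siRNA, near their scramble means of 23.7 and 179.9 TPM. Nrf2 siRNA against scramble was not tested. The difference between the contrasts was tested as an interaction, the log2 difference of double siRNA from Nrf2 siRNA minus that of Pink1 siRNA from scramble. Limma called 0 genes (0%), with 757 at an unadjusted p under 0.05. CP and TYRP1 came nearest (interaction -2.08 and -1.93 on the log2 scale, adjusted p = 0.0532 for both), followed by SLC7A8 (-1.75, adjusted p = 0.0661). With a minimum of 5 TPM all 3 passed (adjusted p = 0.0191, 0.0191 and 0.0282), and CP and TYRP1 also passed under median-of-ratios scaling, quantile normalization and the removal of ENSG00000226958.

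**Figure D5:**
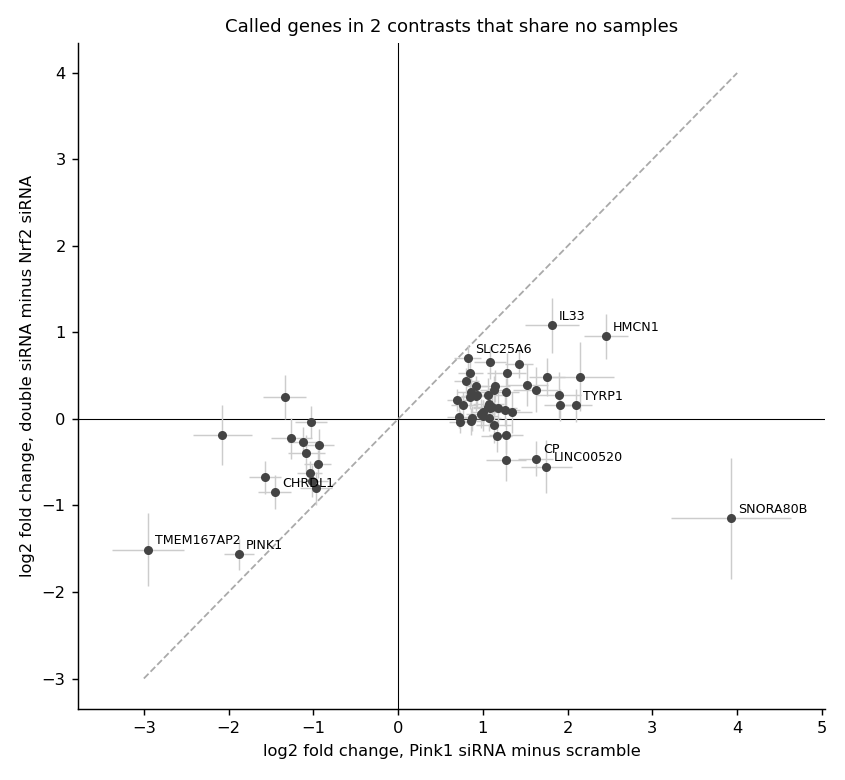
The 63 called genes are plotted by log2 fold change of Pink1 siRNA minus scramble (x axis) and of double siRNA minus Nrf2 siRNA (y axis), with bars of 1 SE and a dashed line of equal values. Of the 63 genes, 53 lie on the same side of 0 in both, and PINK1 (-1.88 and -1.57) lies nearest to the line among the labelled genes that fell.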

How the data were processed

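RNA sequencing libraries were stranded and made from mRNA, per the labels' protocols. The authors deposited a table of TPM per Ensembl gene, and the tools STAR, RSEM and edgeR and the builds GRCh37 and hg19 are listed in the submitters' processing notes. Their versions and order are not given in the sources here. TPM holds no read counts, so depth, counting intervals and detection limits are unknown. Of 24053 identifiers, 22789 were in the gene name table and 19325 had a symbol.

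The technical pair of each biological sample was averaged. A model with the 4 groups (12 biological samples) was fitted to log2(TPM + 1) in limma 3.58.1 (R 4.3.3), its prior following a trend with intensity. The sharing of 1 spread per gene over the groups gave 8 residual degrees of freedom, to which the prior added 5.06. The groups were not equally variable. The median SD of a gene on the log2 scale was 0.201 with Pink1 siRNA, 0.173 with scramble, 0.309 with double siRNA and 0.209 with Nrf2 siRNA. Genes were called in two-sided tests at an adjusted p (Benjamini-Hochberg over the 13758 tested genes) under 0.05. Log2 fold changes are of TPM + 1 and understate the change of low genes. A permutation test of 3 samples against 3 cannot go below p = 0.1. The fit was checked on simulated data, drawn as independent normal values with the same spread per gene in every group. That check does not cover groups of unequal spread such as these. The 10295 genes under the minimum were not tested. The 10 nearest to it had means of 1.0008 to 1.0050 TPM inside and 0.9933 to 0.9992 TPM outside, and 358 tested genes had a scramble mean under 1 TPM.

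Replicate numbers were shared by the labels across groups. Over 4931 genes with at least 20 TPM, deviations from the group means were correlated between Pink1 siRNA and scramble samples. Samples of the same number had r of 0.128, 0.225 and 0.114, all above 0.1, the limit set for trying the numbers as pairs. The fit behind the 63 calls did not use the pairing. A second fit took the number as a block and called 40 genes. This pairing comes from the data, since the labels state no shared batch. It is weak, as pairs of different number ranged from -0.331 to 0.187, the highest above the same-number values of 0.128 and 0.114. The value with the number as a block stands beside each result whose call it changes.

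The members, the 35 gene lists and the tests were chosen with earlier results of these data known. Named were PINK1 and NFE2L2, and, of called genes averaging 2 TPM or more, the 20 that rose most and the 20 that fell most. In each list up to 5 called members were named, or else the 2 most abundant, with up to 2 members at an unadjusted p under 0.01, and a few genes were always named. Outside this rule, and picked after their values were seen, are the genes so marked in the text and OTX2, BEST1, RPE65, GPR143, RAB27A, RAB32, RAB38, MLANA, MC1R, PTPRC, LAMB1, LAMB2, HSPG2, COL4A1, COL4A2, USP15 and SCHIP1. Not every gene under the rule is given in the text. Alternatives were other pseudocounts, minima, scalings, fits and samples left out, and leaving out double siRNA or Nrf2 siRNA samples was added after seeing the data.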

Additional observations from a re-analysis of the deposited data

How the results depend on the processing

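The 63 calls of Pink1 siRNA against scramble became 40 with no minimum TPM, 188 with median-of-ratios scaling, 224 with quantile normalization, 181 without ENSG00000226958, 195 with the compared groups fitted alone, 178 without the double siRNA group, 37 with technical replicate 1 alone and 791 with sample weights, whose estimation stopped before it converged. With the replicate block, which uses the pairing of replicate numbers, 40 genes were called. The other settings stayed within 1.5 times of 63. Leaving out 1 sample gave 15 to 156 calls, the highest without double siRNA replicate 1.

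The 2 calls of double siRNA against Nrf2 siRNA became 1 with no minimum, with the compared groups alone and with technical replicate 1 alone, 0 with technical replicate 2 alone and 2018 with sample weights, and lay between 0 and 4 with 1 sample left out. Interaction calls, 0 in the fit reported, numbered 3 with a minimum of 5 TPM, 2 with median-of-ratios scaling, with quantile normalization and without ENSG00000226958, and 496 with sample weights, and lay between 0 and 4 with 1 sample left out. The log2 fold change of PINK1 in double siRNA against Nrf2 siRNA was no longer called with the compared groups alone (-1.57, adjusted p = 0.711), technical replicate 2 alone (-1.58, adjusted p = 0.211) or without scramble replicate 3 (-1.57, adjusted p = 0.0551). The cause of these moves was not tested.

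With 1 sample left out, the log2 fold change of PINK1 lay between -2.04 and -1.78 against scramble and between -1.65 and -1.44 for double siRNA against Nrf2 siRNA, that of NFE2L2 between -0.28 and -0.15, and the number of the 63 genes with the same sign in both contrasts between 47 and 53. With a minimum of 5 TPM the endothelial and melanocyte marker lists had no tested gene and so no median. No called result turned its direction under any alternative run. Depth is unknown, and how far it limits low genes cannot be told.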

Other observations

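Some called features named by the rule are small RNAs, pseudogenes or unnamed, and their reads may be shared with other genes, so their values are uncertain. SNORA80B, a small nucleolar RNA, was at 10.2, 24.7 and 11.3 TPM with Pink1 siRNA and listed at 0 in all 3 scramble samples. SCARNA13, a small Cajal body RNA, was at 1.48, 1.58 and 0 TPM with Pink1 siRNA, against 7.28, 5.38 and 7.98 TPM with scramble. The pseudogene RPL29P11 averaged 6.42 ± 2.88 TPM with Pink1 siRNA and 0.687 ± 0.619 TPM with scramble. SNORA80B and RPL29P11 entered the test through the Pink1 siRNA samples alone, and TMEM167AP2 through the scramble samples alone. The pseudogene TMEM167AP2 averaged 0.293 ± 0.508 TPM with Pink1 siRNA and 9.23 ± 4.44 TPM with scramble. SNORA80B, RPL29P11 and SCARNA13 lost their call with the replicate block (adjusted p = 0.0524, 0.0714 and 0.0514), and TMEM167AP2 kept it (0.00864). The unnamed ENSG00000261604 was at 6.37, 7.97 and 7.37 TPM with Pink1 siRNA, against 23.1, 22.5 and 24.5 TPM with scramble (limma, adjusted p = 0.00290), and kept its call without any 1 sample. LINC03033, a non-coding RNA, averaged 1.64 ± 0.657 TPM with Pink1 siRNA and 5.21 ± 0.271 TPM with scramble, and lost its call with the block (adjusted p = 0.0714).

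Further called genes lay outside the naming rule and were picked after their values were seen. PRSS12, a secreted serine protease, averaged 295.2 ± 58.3 TPM with Pink1 siRNA and 138.1 ± 19.6 TPM with scramble. ANK3, ankyrin G, which anchors membrane proteins to the cytoskeleton, averaged 33.4 ± 6.32 TPM with Pink1 siRNA and 15.3 ± 2.82 TPM with scramble, and lost its call with the replicate block (adjusted p = 0.0514). The antisense gene SLC9A3-AS1 averaged 17.4 ± 3.84 TPM with Pink1 siRNA and 8.13 ± 1.47 TPM with scramble, and whether the counting used strand is not given in the sources used here.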
